A study of Mus musculus with 11 samples.

Results

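Messenger RNAs of respiratory complexes III, IV and V were followed in whole kidneys of a mouse model of Alport syndrome, a hereditary kidney disease in which the type IV collagen network of the glomerular basement membrane is defective. Members were chosen by name, as every row of the count tables whose gene symbol starts with Uqcr (complex III), with Cox4, Cox5, Cox6, Cox7 or Cox8 (complex IV), or with Atp5 (complex V). The rule found 41 of 24914 rows, of which 8 belong to complex III, 17 to complex IV and 16 to complex V. All mice were of strain 129X1/SvJ and were 5.5 weeks old at the end of the experiment. The HET PBS group (n = 3) was heterozygous, Col4a3+/-, and received PBS. The KO PBS group (n = 4) was Col4a3-/- and received PBS, and the KO antimiR-21 group (n = 4) was Col4a3-/- and received antimiR-21, an inhibitor of the microRNA miR-21. Wild-type mice and heterozygous mice given antimiR-21 were not analysed here, so the controls carry 1 mutant allele and the inhibitor can be compared only among knockouts. Neither the sex of the mice nor the dose is stated in the labels used here, and they do not say that replicates were separate animals. Each group holds libraries with and without reads of a Y-linked gene, so no group is a single animal sequenced repeatedly. Whether every library is a separate animal is not stated, and p-values measure the spread between libraries, part of which may be technical.

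Complex III passes electrons from ubiquinol to cytochrome c, complex IV passes them from cytochrome c to oxygen, and both pump protons across the inner mitochondrial membrane. Complex V, the ATP synthase, uses the proton gradient to make ATP in its F1 head, which a central stalk, a peripheral stalk and a membrane ring connect to the membrane. In kidney the chain is most abundant in the proximal tubule and the thick ascending limb, whose salt transport consumes much ATP. The subunits encoded in the mitochondrial genome do not carry these name prefixes and are not among the members. In bulk RNA, fewer cells of a type and less RNA per cell cannot be told apart.

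Promoter windows from RefSeq (build GRCm38.p6), which run from 250 bases before to 50 bases after the annotated start, were matched to 31 of the 41 members. Windows of 4 members are printed because the results return to them: the common and the testis form of subunit 6b, the stalk subunit gene whose start lies beside that of Kctd2, and the membrane subunit gene Atp5k. Capitals mark matches, on either strand, to CCGGAAG (the core bound by GABPA), GCGCATGCG (NRF1) or AAGGTCA (estrogen-related receptors). The windows lie on the minus strand at chr7:30626065-30626364 (Cox6b1), chr7:4753045-4753344 (Cox6b2), chr11:115419870-115420169 (Atp5h) and chr5:108434350-108434649 (Atp5k), and are written 5′ to 3′ in the direction of transcription.
Cox6b1: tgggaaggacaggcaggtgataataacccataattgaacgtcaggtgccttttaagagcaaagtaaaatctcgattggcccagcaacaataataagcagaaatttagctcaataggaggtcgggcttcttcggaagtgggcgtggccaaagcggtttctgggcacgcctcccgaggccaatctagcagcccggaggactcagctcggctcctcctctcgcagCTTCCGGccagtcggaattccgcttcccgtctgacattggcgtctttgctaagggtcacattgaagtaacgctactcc
Cox6b2: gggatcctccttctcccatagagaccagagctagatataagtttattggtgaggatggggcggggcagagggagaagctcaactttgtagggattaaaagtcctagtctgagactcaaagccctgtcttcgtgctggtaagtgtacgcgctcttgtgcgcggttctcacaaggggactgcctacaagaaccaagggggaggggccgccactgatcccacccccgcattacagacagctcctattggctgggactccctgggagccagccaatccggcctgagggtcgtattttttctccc
Atp5h: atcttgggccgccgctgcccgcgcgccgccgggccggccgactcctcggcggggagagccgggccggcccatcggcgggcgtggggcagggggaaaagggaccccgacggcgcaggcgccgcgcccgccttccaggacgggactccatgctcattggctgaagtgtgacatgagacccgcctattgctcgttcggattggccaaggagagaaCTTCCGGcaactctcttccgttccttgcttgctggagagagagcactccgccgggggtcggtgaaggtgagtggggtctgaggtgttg
Atp5k: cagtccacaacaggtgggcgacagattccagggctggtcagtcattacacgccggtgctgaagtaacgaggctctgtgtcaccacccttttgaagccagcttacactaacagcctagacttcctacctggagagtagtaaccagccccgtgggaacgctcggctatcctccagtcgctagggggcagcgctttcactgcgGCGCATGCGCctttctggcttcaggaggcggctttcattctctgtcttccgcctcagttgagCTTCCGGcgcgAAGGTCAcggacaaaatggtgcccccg
The Cox6b1 window held a GABPA match and the Cox6b2 window none of the motifs searched. In the Atp5k window the NRF1 string matched on both strands in overlapping positions, and a GABPA and a receptor match lay just after the start. The Atp5h window held a GABPA match.

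Over the 31 windows, the GABPA string was found in 9 (29.0%), against 9.12% of the 27025 windows of all genes. The NRF1 string was found in 6 (19.4%, against 1.81% of all windows) and the receptor string in 4 (12.9%, against 4.66%). The E-box CACGTG was found in 3 (9.68%, against 7.24%), and the YY1 string AAGATGGC and the cyclic AMP response element TGACGTCA were each found in 1 (3.23%), against 2.88% and 1.88%. None of these strings contains another. The matches describe letters in a window and do not show binding.

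Total counts ran from 17.9 M to 39.7 M per library after rows with identical counts had been joined, which sets a fine counting precision for most members but not for Cox4i2, Cox8b, Cox7b2 and Cox8c. Reads of the targeted gene could not be used to check the genotype, because Col4a3 had the same count as Col4a4 in every library; this joint locus was at 870.1 to 1271 CPM (counts as a proportion of the TMM-scaled library total, on the usual CPM scale) in HET PBS, 607 to 997 in KO PBS and 515 to 809 in KO antimiR-21. Reads of the Y-linked gene Ddx3y were above 5 CPM in 5 libraries: HET PBS 2 and 3, KO PBS 3 and 4, and KO antimiR-21 4. The split is thus uneven over the groups, and values within each side of it stand beside the results it touches. Fibroblast markers (8 genes) summed to 423 to 628 CPM in HET PBS, 704 to 1362 in KO PBS and 629 to 971 in KO antimiR-21, and proximal tubule markers (12 loci) to 25387 to 43397, 19413 to 35162 and 23161 to 37232. All 12 proximal tubule loci were lower in KO PBS than in HET PBS (median log2 difference -0.32, where 53.5% of all loci were lower). Of these, 5 had an unadjusted p under 0.05 by edgeR (6.94% of all loci) and 0 an adjusted p under 0.05. With the inhibitor in knockouts 7 were higher and 5 lower. The part of both marker sets in the results was not tested.

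Transcript levels differed widely between the members. Per kilobase of transcript, averaged over the 11 libraries, the F1 beta subunit gene Atp5b led with 2188 CPM per kilobase, followed by the membrane ring gene Atp5g3 (1291) and the F1 alpha gene Atp5a1 (1249). Cox4i1, the common form of subunit 4, was the highest of complex IV with 839. In complex III, Uqcrc2 (396, joint with Pdzd9) and Uqcrc1 (392), its large core proteins, led with nearly equal levels. Among the remaining members of complex III, Uqcrh was at 358, Uqcr10 at 331, the Rieske iron-sulfur protein gene Uqcrfs1 at 313, Uqcrb at 262, Uqcr11 at 228 and Uqcrq at 80.9 CPM per kilobase. The length was that of the longest consensus coding transcript, 1521 bases for Uqcrq but 535 for Uqcrb and 445 for Uqcr11. Before division by length Uqcrq averaged 123 CPM, Uqcrb 140 and Uqcr11 101, so the low place of Uqcrq depends on that length. Over libraries, the levels of Uqcrc2, Uqcrc1 and Uqcrh per kilobase ran from 332 to 465, 341 to 447 and 316 to 429.9. Within libraries, Uqcrc2 and Uqcrc1 each lay above Uqcrh in 10 of 11, the exception being KO PBS 2. Uqcrc2 lay above Uqcrc1 in 6 of 11, the exceptions being HET PBS 2 and KO PBS 1, 2, 3 and 4. The order of these core protein transcripts is thus not resolved over the 11 libraries, and its relation to the groups was not tested.

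**Figure D1:**
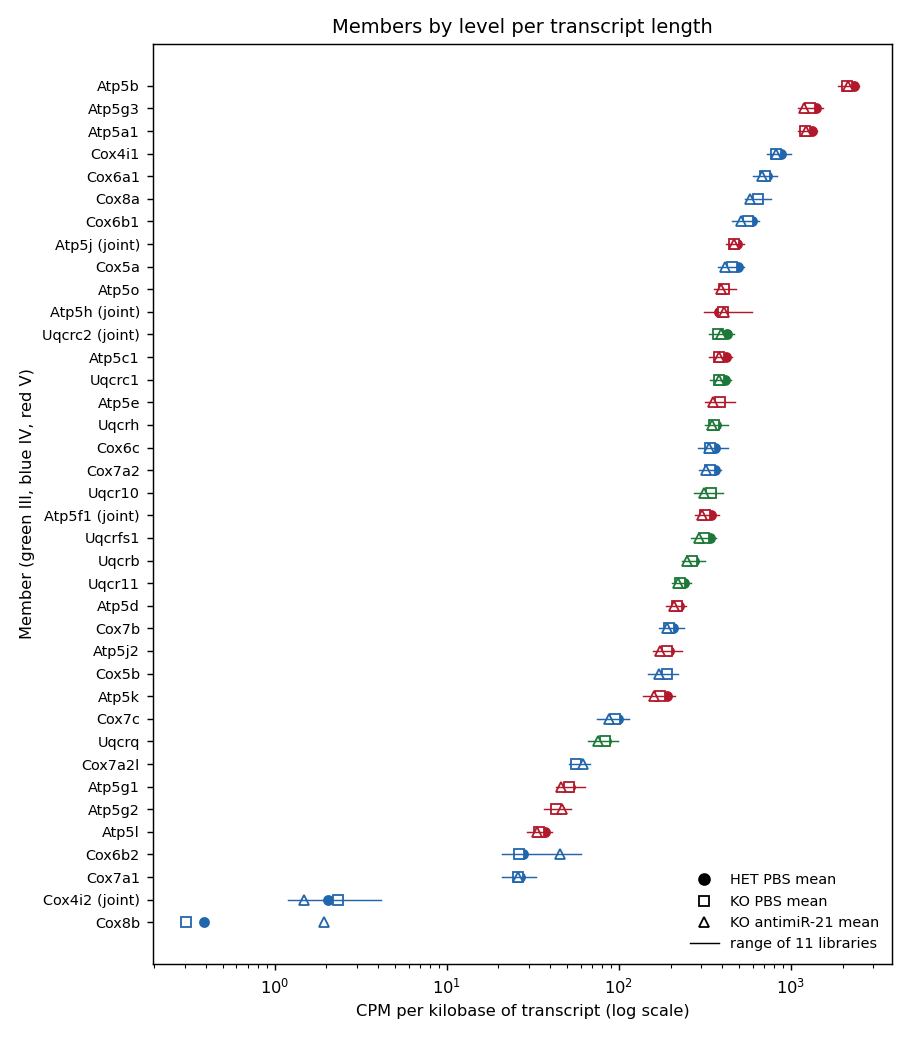
Level of each detected member in CPM per kilobase of its longest consensus coding transcript (log axis), with 1 marker per group mean and a line over the range of the 11 libraries; colours mark the complex. Levels run from 2188 for Atp5b to 0.922 for Cox8b; the line of Cox8b, which was at 0 in 3 libraries, is not drawn, and Cox7b2, Cox8c and Atp5sl are not shown.

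Of the 41 members, 38 had enough counts to be tested (8, 14 and 16 of complexes III, IV and V), and 5 of these share their reads with another name. Atp5f1 was joint with Wdr77, Atp5h with Kctd2, Atp5j with Gabpa, Uqcrc2 with Pdzd9 and Cox4i2 with an unnamed locus, so their values cannot be assigned to either gene. The 3 members not tested were the minor isoform genes Cox7b2, with 2.5 counts in all libraries together, Cox8c, with 0.5, and Cox8b, with 75.0. The names also catch 2 genes that are not subunits, Cox7a2l, which helps to join complexes III and IV into supercomplexes, and Atp5sl, whose RefSeq symbol is Dmac2. The rule found no row named Cox6a2, the heart and muscle form of subunit 6a, so this form could not be followed.

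The first comparison, of KO PBS with HET PBS, addresses the effect of losing Col4a3 on these transcripts. After Benjamini-Hochberg adjustment edgeR called 0 of 38 members and 0 of 14380 loci (0.0%), so by edgeR the absence of calls is not particular to these complexes. DESeq2 called 0 members beside 83 loci, and limma-voom called 0 members and 0 loci. At an unadjusted p under 0.05, 1 member was lower and 0 were higher, against 6.94% of all loci. Most differences were small and negative. In complex III 7 of 8 members, in complex IV 11 of 14 and in complex V 14 of 16 were lower in KO PBS, 32 of 38 together, against 53.5% of all loci. The median log2 differences were -0.06, -0.07 and -0.09 for complexes III, IV and V, and -0.02 over all loci tested. They depended on single libraries. In complexes III and IV they ran from -0.14 in both without KO PBS 2 to -0.02 in both without KO PBS 4, and in complex V from -0.15 without HET PBS 1 to -0.02 without HET PBS 3. For 35 of 38 members the interval of 2 SE each way lay within 0.5 on the log2 scale on both sides of 0. The exceptions were Atp5h/Kctd2, Cox4i2 and Cox6b2, so for the other members a difference larger than this is outside the interval.

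The core protein gene Uqcrc2 had the smallest p in complex III. It stood at 725, 805 and 881 CPM in HET PBS, at 630.2, 803, 731 and 687 in KO PBS, and at 729, 726, 674 and 859 in KO antimiR-21. The groups overlap, since KO PBS 2 and 3 both lie above HET PBS 1. Its log2 difference between KO PBS and HET PBS was -0.17 (SE 0.117, adjusted p = 0.804). Uqcrc1, the other core protein gene, stood at 625, 718 and 714 CPM in HET PBS, at 566, 707, 644 and 611 in KO PBS and at 615, 622, 563 and 739.5 in KO antimiR-21, with a log2 difference of -0.12 (SE 0.115, adjusted p = 0.863). Again KO PBS 2 was the highest of the untreated knockouts.

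In complex IV, Cox5a, which encodes a matrix-side subunit, stood at 279.6, 329 and 346 CPM in HET PBS, at 259, 333, 305 and 280.4 in KO PBS and at 253, 242, 263 and 307 in KO antimiR-21. KO PBS lay 0.11 lower on the log2 scale than HET PBS by the edgeR fit (log2 difference -0.11, SE 0.118, adjusted p = 0.871), with overlapping ranges. Cox7b, an X-linked subunit gene, stood at 206, 201 and 216 CPM, at 190.1, 241, 178 and 172, and at 194, 186, 177 and 209.9 in the same order of groups. Its KO PBS values fall on both sides of the HET PBS values (log2 difference -0.09, SE 0.115, adjusted p = 0.894).

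In complex V, Atp5a1, the F1 alpha gene, stood at 3016, 3289 and 3531 CPM in HET PBS, at 2707, 3372, 2991 and 2926 in KO PBS and at 2935, 2942, 2777 and 3451 in KO antimiR-21. The ranges overlap, and the log2 difference between KO PBS and HET PBS was -0.13 (SE 0.112, adjusted p = 0.844). The catalytic F1 beta gene Atp5b and the F1 gamma gene Atp5c1 had the same log2 difference of -0.13, with SE 0.122 and 0.126. Atp5sl was the only member with separate ranges, where 6.76% of all loci have them. It stood at 96.9, 108 and 89.3 CPM in HET PBS, at 82.0, 85.4, 80.2 and 79.5 in KO PBS and at 107, 106, 81.6 and 96.7 in KO antimiR-21. All 4 KO PBS libraries lay below all 3 HET PBS libraries, and the log2 difference was -0.26 (SE 0.0982, unadjusted p = 0.0199 and adjusted p = 0.621 by edgeR). Without HET PBS 2 it was -0.17 (unadjusted p = 0.144 by edgeR).

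**Figure D2:**
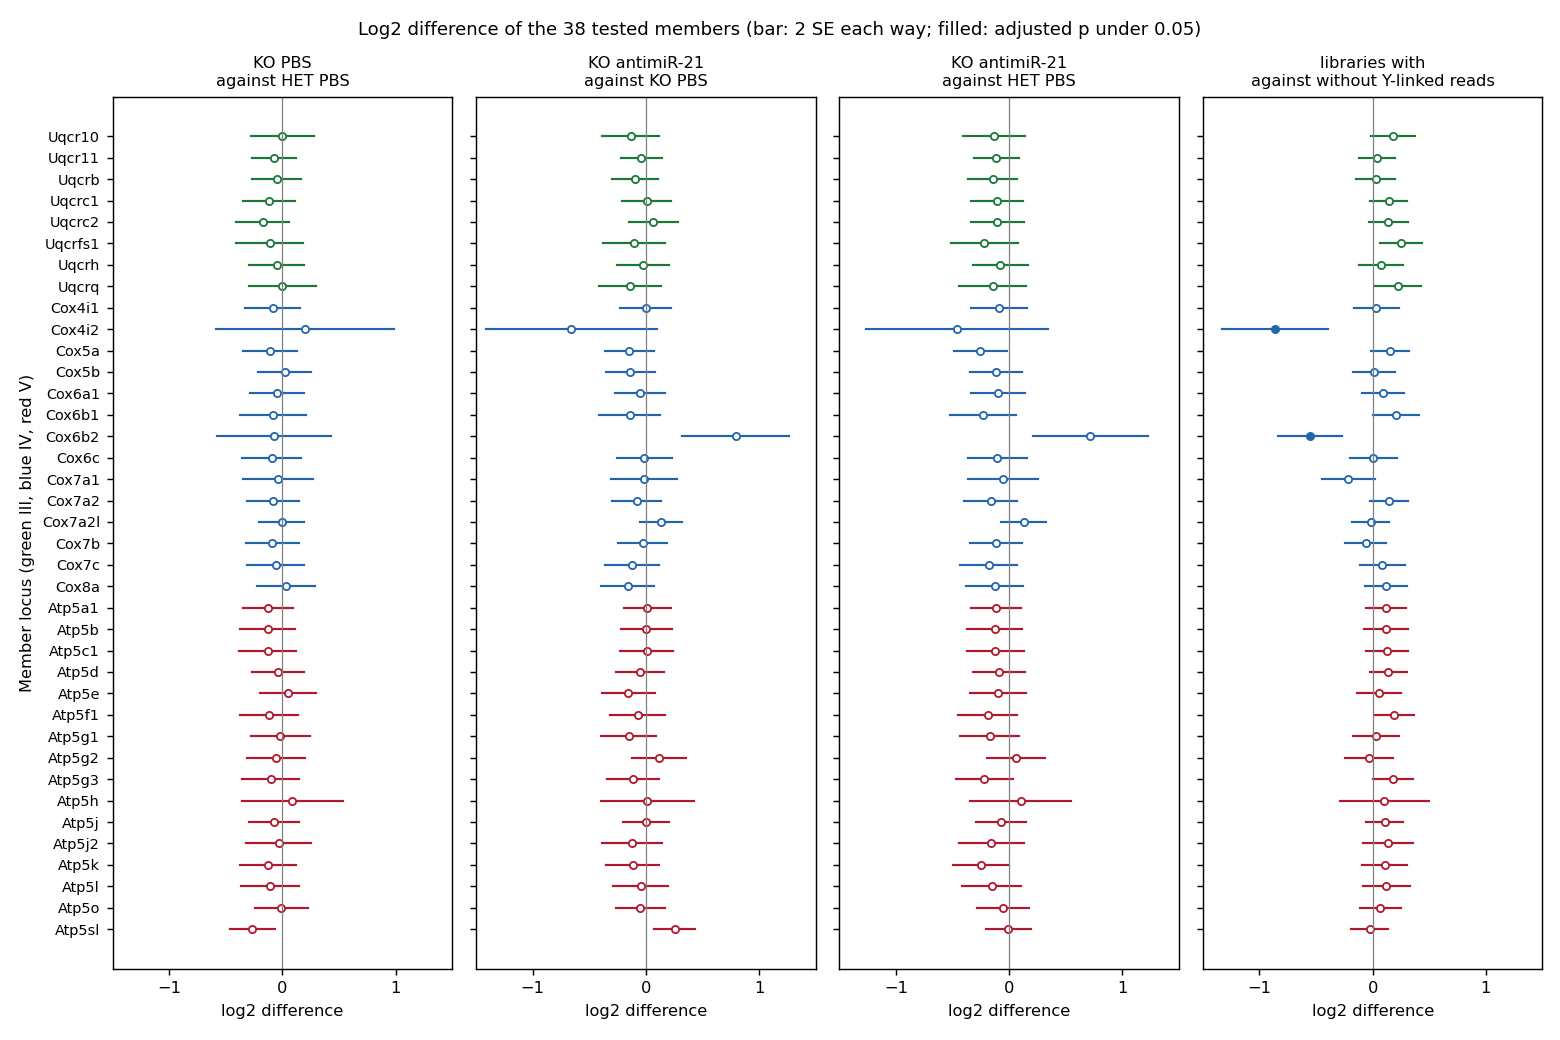
Log2 difference of each of the 38 tested members (rows, coloured by complex) in the 3 group comparisons and between libraries with and without Y-linked reads (panels), with bars of 2 SE each way from edgeR; filled points have an adjusted p under 0.05. Points of the group panels cluster slightly below 0 and all are open, and the filled points are Cox4i2 and Cox6b2 in the last panel.

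The second comparison, of KO antimiR-21 with KO PBS, addresses the effect of the inhibitor in knockouts. Again edgeR called 0 of 38 members (0.0% of 14380 loci called). DESeq2 called 0 members beside 128 loci, and limma-voom called 0 members and 0 loci. At an unadjusted p under 0.05, 2 members were higher, Cox6b2 and Atp5sl, and 0 were lower, beside 8.21% of all loci. No member had separate ranges, against 4.28% of all loci. The members lay slightly lower with the inhibitor in 6 of 8 cases in complex III, 12 of 14 in complex IV and 9 of 16 in complex V, against 49.1% of all loci. Median log2 differences were -0.07, -0.06 and -0.05, and 0.00 over all loci. For 36 of 38 members the interval lay within 0.5 on both sides of 0, Cox4i2 and Cox6b2 being the exceptions.

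These medians changed sign with the makeup of the groups. Within the 6 libraries without Y-linked reads, the medians of complexes III, IV and V were 0.11, 0.11 and 0.081 for KO PBS against HET PBS, and -0.21, -0.22 and -0.18 for the inhibitor against PBS in knockouts. Within the 5 libraries with such reads they were -0.15, -0.14 and -0.17, and then 0.22, 0.22 and 0.21. Each set leaves 1 library in a group, HET PBS 1 in the set without such reads and KO antimiR-21 4 in the set with them. The set without them also holds KO PBS 2, which had the highest value of 16 of the 38 members. These medians therefore rest on single libraries. Without KO PBS 2 the medians for the inhibitor in knockouts were 0.011, 0.00074 and 0.0016, and without KO antimiR-21 4 they were -0.15, -0.17 and -0.15. With Y-linked status as a covariate, the medians were -0.05, -0.05 and -0.07 for KO PBS against HET PBS and -0.05, -0.06 and -0.02 for KO antimiR-21 against KO PBS.

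Uqcr10 and Uqcrq, small membrane subunits of complex III, had the smallest p of that complex with the inhibitor. Uqcr10 stood at 129, 155 and 162 CPM in HET PBS, at 131, 175, 153 and 135 in KO PBS and at 129.9, 126, 119 and 166 in KO antimiR-21. Uqcrq stood at 115, 140.3 and 128, at 114, 143, 138 and 114, and at 106, 100.1, 104 and 152 CPM. In both genes 3 treated libraries lay at or below the lowest untreated knockouts and the library KO antimiR-21 4 lay near the top. The log2 difference was -0.14 for each (SE 0.128 and 0.138, adjusted p = 0.841 and 0.843 by edgeR). Atp5e, the F1 epsilon gene, repeated the pattern at 146, 161 and 169, then 157, 198, 150.0 and 151, then 148, 133, 135 and 175 CPM, with a log2 difference of -0.15 (SE 0.115, adjusted p = 0.789).

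Cox6b2, known as the testis form of subunit 6b, differed most in size. It stood at 19.7, 13.2 and 15.9 CPM in HET PBS, at 17.4, 18.3, 12.3 and 13.7 in KO PBS and at 33.5, 35.3, 20.9 and 17.2 in KO antimiR-21. KO antimiR-21 1 and 2 lay far above every other library, KO antimiR-21 3 slightly above, and KO antimiR-21 4 within the KO PBS range. The log2 difference from KO PBS was 0.79 (SE 0.235, unadjusted p = 0.00584, adjusted p = 0.384 by edgeR and 0.0784 by DESeq2), and that from HET PBS was 0.72 (SE 0.255, unadjusted p = 0.0164, adjusted p = 0.569 by edgeR). Cox6b2 was also lower with Y-linked reads (log2 difference -0.55). Among knockouts with those reads, KO PBS stood at 12.3 and 13.7 CPM and the 1 treated library at 17.2. Among knockouts without them, KO PBS stood at 17.4 and 18.3 CPM and the treated libraries at 33.5, 35.3 and 20.9. The libraries KO antimiR-21 1 and 2, and KO PBS 4, are also those in which the brown fat gene Ucp1 was above 1 CPM. Without those 3 libraries the Cox6b2 difference from KO PBS was 0.24 (unadjusted p = 0.327 by edgeR), and the part of fat tissue in it was not tested. The common form Cox6b1 lay lower on average without passing the test. It stood at 325, 387 and 397 CPM in HET PBS, at 311, 403, 354 and 325 in KO PBS and at 295, 280.5, 282 and 405 in KO antimiR-21 (log2 difference from KO PBS -0.14, SE 0.135, adjusted p = 0.843).

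Both genes that are not subunits lay higher with the inhibitor. Atp5sl had a log2 difference from KO PBS of 0.26 (SE 0.0914, unadjusted p = 0.0166, adjusted p = 0.49 by edgeR), its highest treated libraries being again KO antimiR-21 1 and 2. Without the 3 libraries with Ucp1 above 1 CPM it was 0.10. Cox7a2l stood at 63.3, 63.9 and 64.3 CPM in HET PBS, at 61.9, 73.8, 60.0 and 58.4 in KO PBS and at 75.1, 63.0, 64.4 and 76.6 in KO antimiR-21. Its log2 difference from KO PBS was 0.14 (SE 0.0917, adjusted p = 0.769), and all groups overlap.

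The third comparison, of KO antimiR-21 with HET PBS, shares its libraries with the other comparisons and so gives no separate evidence. Here edgeR called 0 of 38 members beside 1 of 14380 loci (0.00695%). DESeq2 called 0 members beside 73 loci, and limma-voom called 0 members and 0 loci. At an unadjusted p under 0.05, Cox6b2 was higher and 0 members were lower, beside 8.05% of all loci, and 0 members had separate ranges, beside 5.98%. All 8 members of complex III, 12 of 14 of complex IV and 14 of 16 of complex V were lower, against 50.5% of all loci. The median log2 difference was -0.12 in each complex and 0.00 over all loci. It was -0.19, -0.19 and -0.20 in complexes III, IV and V without KO antimiR-21 4, and -0.08, -0.08 and -0.07 without KO antimiR-21 3. Within the libraries with Y-linked reads it was 0.065, 0.056 and 0.052 for complexes III, IV and V, with 1 treated library, and within those without -0.09, -0.13 and -0.07, with 1 HET PBS library.

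The named members of this comparison show the weight of KO antimiR-21 4. Uqcrfs1 stood at 398, 491 and 502 CPM in HET PBS, at 356, 488, 446 and 423 in KO PBS and at 366, 366, 359.9 and 501 in KO antimiR-21. Atp5g3 stood at 886, 1041 and 1107, at 828, 1051, 982 and 899, and at 814, 831, 801 and 1028 CPM. In both, 3 treated libraries lay below all HET PBS libraries while the fourth lay among the highest. The log2 differences from HET PBS were -0.22 (SE 0.147, adjusted p = 0.643) for Uqcrfs1 and -0.22 (SE 0.125, adjusted p = 0.618) for Atp5g3. Uqcrb, a small subunit of complex III, stood at 137, 146 and 158, at 132, 170.2, 139.8 and 125, and at 130.1, 127, 126 and 148 CPM, with a log2 difference of -0.14 (SE 0.108, adjusted p = 0.66). Cox5a, whose values are given above, had the smallest p among members that lay lower (log2 difference -0.26, SE 0.118, adjusted p = 0.614). Atp5k, the subunit e gene whose window holds all 3 printed motifs, stood at 65.7, 66.6 and 79.1, at 58.7, 75.0, 64.5 and 59.4, and at 60.9, 54.2, 51.6 and 70.8 CPM, with a log2 difference of -0.25 (SE 0.124, adjusted p = 0.614).

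Several subunits come in a common form and a form that other tissues prefer, and in these kidneys the common form led in every library. Cox4i1 stood at 638, 670.1 and 703 CPM in HET PBS, at 571, 769.8, 608 and 576 in KO PBS and at 624, 624, 558 and 713 in KO antimiR-21. The locus of Cox4i2, the lung form, stood at 2.19, 1.24 and 1.07, at 3.03, 1.70, 1.06 and 1.09, and at 0.875, 1.16, 1.37 and 0.910 CPM. KO PBS 1 and HET PBS 1 were its highest libraries. Per length, Cox4i2 made up 0.133% to 0.551% of the subunit 4 transcripts over the 11 libraries.

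Cox6b2 made up 3.48% to 11.7% of the subunit 6b transcripts per length, with a median of 4.58%. Its share was 10.7% in KO antimiR-21 1, 11.7% in KO antimiR-21 2 and 7.26% in KO antimiR-21 3, and no other library was above 6.01%. Cox6a1, the common form of subunit 6a, stood at 385, 442 and 421, at 371, 472, 397 and 370.1, and at 384, 372, 344 and 455 CPM in the 3 groups. None of its group differences was called, and the log2 difference between KO PBS and HET PBS was -0.05 (SE 0.12).

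For subunit 7a, Cox7a2 stood at 215, 241 and 258 CPM in HET PBS, at 199.7, 255, 231 and 213 in KO PBS and at 209.6, 199, 193 and 249.8 in KO antimiR-21. Cox7a1, the heart and muscle form, stood at 10.6, 10.7 and 10.3, at 10.1, 13.0, 8.24 and 9.67, and at 11.5, 10.6, 9.42 and 9.15 CPM. It made up 5.65% to 8.41% of the pair per length in these kidneys, and its groups overlap.

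For subunit 8, Cox8a stood at 332, 369 and 346 CPM in HET PBS, at 313, 421, 352 and 340.4 in KO PBS and at 297, 297, 296 and 388 in KO antimiR-21. The heart and muscle form Cox8b was nearly silent except in 1 library, at 0.0858, 0.247 and 0.0889, at 0.0918, 0, 0 and 0.349, and at 2.40, 0.276, 0 and 0.107 CPM. Its highest libraries, KO antimiR-21 1 and KO PBS 4, were also the highest for Ucp1, the uncoupling protein of brown fat, which stood at 0.558, 0.631 and 0.0889, at 0.275, 0.100, 0.132 and 4.50, and at 17.1, 2.15, 0 and 0.214 CPM. In KO antimiR-21 1 the fat genes Cidea and Adipoq were at 8.20 and 4.37 CPM, while the muscle genes Acta1 and Ckm were at 0.0547 and 0.219 CPM there. Summed over the list, brown fat markers (6 genes) were at 89.4 to 135 CPM in HET PBS, 105 to 118 in KO PBS and 105 to 159 in KO antimiR-21, with KO antimiR-21 1 the highest. Cpt1b, which is also expressed in muscle, made up most of these sums (102 to 135 CPM in KO antimiR-21), and the part of fat tissue in the Cox8b reads was not tested. The testis form Cox8c had no count of 1 or more in any library, and Cox7b2 was at 0 in 9 libraries.

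**Figure D3:**
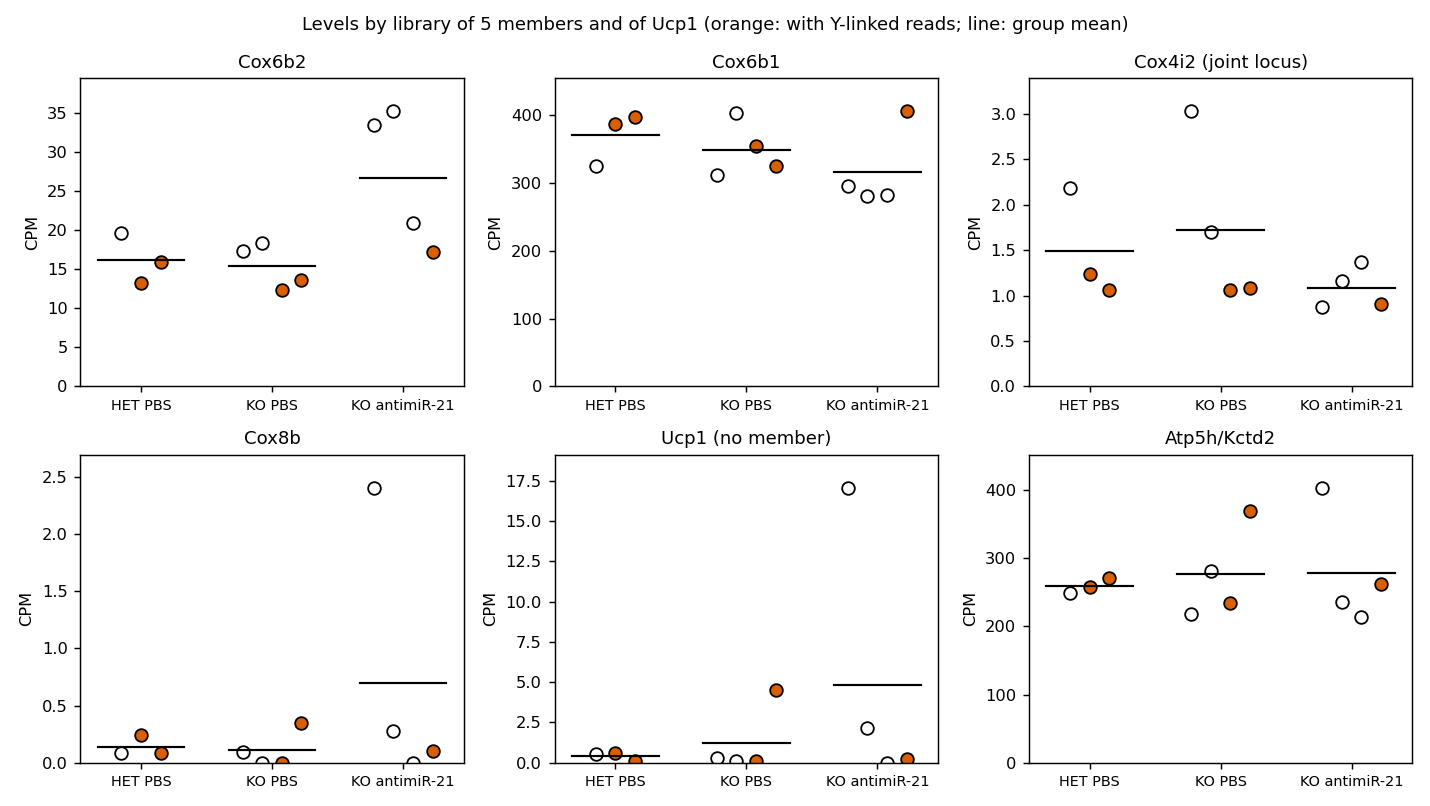
CPM per library (points; orange with Y-linked reads) and group means (lines) for Cox6b2, Cox6b1, the joint locus of Cox4i2, Cox8b, Ucp1 and the joint locus Atp5h/Kctd2, with axes from 0. KO antimiR-21 1 and 2 stand at 33.5 and 35.3 CPM for Cox6b2, and KO antimiR-21 1 at 2.40 for Cox8b and 17.1 for Ucp1.

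The c subunit of the membrane ring is encoded by 3 genes with one mature protein. Per kilobase of the longest consensus coding transcript, Atp5g3 made up 92.4% to 94.0% of the 3 genes in every library. That transcript has 4715 bases for Atp5g1 but 723 for Atp5g3 and 731 for Atp5g2, so the shares depend on this choice. Before division by length, the means over the 11 libraries were 933 CPM for Atp5g3, 234 for Atp5g1 and 32.8 for Atp5g2. Atp5g1 stood at 233, 234 and 269 CPM, at 228, 298, 226 and 214, and at 202, 206, 205 and 257, with KO PBS 2 far above the other untreated knockouts and KO antimiR-21 4 far above the other treated ones. Atp5g2 stood at 31.0, 34.1 and 33.2, at 32.3, 38.3, 28.8 and 26.7, and at 36.1, 31.7, 30.3 and 38.6 CPM. Both genes overlap between all groups.

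The joint locus of the stalk subunit d gene Atp5h and Kctd2, on chromosome 11, varied most among the abundant members. It stood at 249.6, 258 and 272 CPM in HET PBS, at 218, 282, 235 and 369.5 in KO PBS and at 403, 235, 213 and 262 in KO antimiR-21. KO antimiR-21 1 and KO PBS 4 stood apart from their groups. They were also the highest libraries for Ucp1, and the part of fat tissue in these values was not tested. The genes are transcribed in opposite directions from starts 166 bases apart, and the printed Atp5h window spans both. With an unstranded kit and equal counts in the files, which of the 2 genes gave the high reads cannot be told apart.

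Members varied together from library to library. As the median deviation of a complex's members from their own mean over the 11 libraries, in log2 CPM, complexes III, IV and V were at 0.22, 0.26 and 0.18 in KO PBS 2, at 0.21, 0.16 and 0.17 in KO antimiR-21 4, at 0.16, 0.12 and 0.19 in HET PBS 3 and at 0.12, 0.07 and 0.10 in HET PBS 2. At the other end they were at -0.18, -0.17 and -0.18 in KO antimiR-21 3, and from -0.13 to -0.10 in KO PBS 1, KO PBS 4 and KO antimiR-21 2. The medians over all loci stayed between -0.01 and 0.02.

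**Figure D4:**
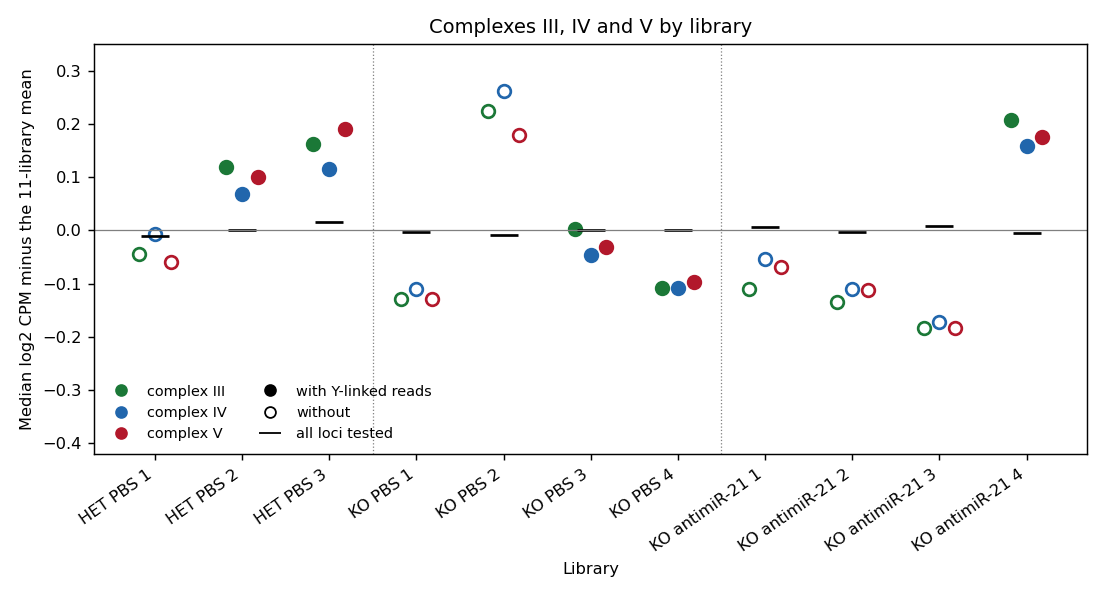
Median log2 CPM deviation of the members of complexes III, IV and V (green, blue, red) from their own mean over 11 libraries, by library; filled points are libraries with Y-linked reads and black dashes the median over all loci tested. The complexes move together, from 0.22, 0.26 and 0.18 in KO PBS 2 to -0.18, -0.17 and -0.18 in KO antimiR-21 3, and each group holds high and low libraries.

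KO PBS 2 held the highest value of 16 of the 38 members (42.1%) and of 8.59% of all loci, and KO antimiR-21 3 held the lowest value of 17 members (44.7%) and of 8.59% of all loci. The number of members above their own mean was 36 in KO PBS 2, 34 in each of HET PBS 2, HET PBS 3 and KO antimiR-21 4, and 2 in each of KO PBS 4 and KO antimiR-21 3. Despite this, the spread was ordinary: for the 33 members at 50 CPM or more, the log2 range over the 11 libraries had a median of 0.47, against 0.46 for the 4606 loci at that level.

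The same libraries were high for other mitochondrial genes. Genes of complex I (37 with the prefix Nduf) were at 0.20 in KO PBS 2, 0.20 in KO antimiR-21 4, 0.18 in HET PBS 3 and -0.21 in KO antimiR-21 3, and the mitochondrial ribosome (56 genes) was at 0.11, 0.17, 0.16 and -0.17. Genes of the cytosolic ribosome (69) were also high in KO PBS 2 (0.21) and KO antimiR-21 4 (0.18) but at -0.09 and -0.05 in HET PBS 2 and 3. Loci with under 1000 exon bases (240) were at 0.14 in KO PBS 2 and 0.11 in KO antimiR-21 4, where loci with 4000 or more were at -0.04 in each. Proximal tubule markers summed to 43397 and 38261 CPM in HET PBS 2 and 3 and 37232 in KO antimiR-21 4, but to 25243 in KO PBS 2. These sums were 28366.5 or more in every library with Y-linked reads and 25387 or less in every library without. Between these sides, however, 5 of the 12 markers were higher with Y-linked reads and 7 lower (median log2 difference -0.03). The sums therefore do not stand for each marker. The part of transcript length and of tubule content in the pattern was not tested.

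Libraries with Y-linked reads were compared with those without in a fit that also held the 3 groups. This split was read from the data and is not a group of the study. Cox4i2 and Cox6b2 were the members called, both lower with Y-linked reads, 2 of 38 where 17.9% of all loci were called, 6.85% lower and 11.1% higher. For Cox6b2 the log2 difference was -0.55 (SE 0.141, adjusted p = 0.0176), and the 5 libraries with Y-linked reads (12.3 to 17.2 CPM) all lay below the 6 without (17.4 to 35.3 CPM). For the Cox4i2 locus it was -0.86 (SE 0.234, adjusted p = 0.0234), with ranges that overlap (0.910 to 1.24 against 0.875 to 3.03 CPM). Both calls were lost without HET PBS 1 (adjusted p = 0.0583 and 0.12) and without KO PBS 3 (0.051 and 0.0757), that of Cox6b2 also without KO antimiR-21 4 (0.109), and that of Cox4i2 also without KO PBS 1 (0.0734) and without the 3 libraries with Ucp1 above 1 CPM (0.0503).

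The other members leaned higher with Y-linked reads, 31 of 38 with a median of 0.10, and none was called higher. Uqcrfs1 (log2 difference 0.25, SE 0.0947, adjusted p = 0.0868) and Uqcrq (0.22, SE 0.101, adjusted p = 0.143) led in complex III, Cox6b1 (0.21, SE 0.101, adjusted p = 0.175) in complex IV, and Atp5f1 joint with Wdr77 (0.19, SE 0.0894, adjusted p = 0.166) and Atp5g3 (0.18, SE 0.0875, adjusted p = 0.168) in complex V. Atp5f1/Wdr77 stood at 489.9, 565 and 609.6 CPM in HET PBS, at 449, 578, 532 and 487 in KO PBS and at 464, 448, 445 and 588 in KO antimiR-21. In each of these genes KO PBS 2, a library without Y-linked reads, lay among those with them. Without it, 18 members were called, 16 higher and 2 lower, where 15.4% of 14439 loci were called higher. The 16 were Uqcr10, Uqcrc1, Uqcrc2, Uqcrfs1 and Uqcrq of complex III, Cox5a, Cox6b1, Cox7a2 and Cox8a of complex IV, and Atp5a1, Atp5b, Atp5c1, Atp5d, Atp5f1, Atp5g3 and Atp5j2 of complex V. Among them Uqcrfs1 had a log2 difference of 0.36 (adjusted p = 0.000984). KO PBS 2 goes against the split, so the gain in calls follows from leaving it out and is no separate result. With any other library left out, Uqcrfs1 was not called. Its adjusted p by edgeR then ran from 0.0526 without KO PBS 4 to 0.452 without KO antimiR-21 4, where the log2 difference was 0.14.

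Genes that build or feed the complexes but carry other names were taken from lists. No gene of these lists was called between the groups by edgeR. Of 4 chain components outside the prefixes, all 4 were lower in KO PBS than in HET PBS (53.5% of all loci) and all 4 lower in KO antimiR-21 than in KO PBS (49.1% of all loci), none with an unadjusted p under 0.05. Cycs, the electron carrier cytochrome c, stood at 90.8, 175 and 189.8 CPM in HET PBS, at 86.1, 119.6, 165 and 146 in KO PBS and at 76.4, 72.2, 81.3 and 153 in KO antimiR-21. The 5 libraries with Y-linked reads were its 5 highest, and it rose with them by 0.83 on the log2 scale (SE 0.101, adjusted p = 0.000149). Cyc1, the cytochrome c1 subunit of complex III, stood at 492, 576 and 573, at 453, 570.1, 528 and 512, and at 474, 459.7, 433 and 593 CPM, with 0.19 for the same term (SE 0.083, adjusted p = 0.129).

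Of 20 assembly factors of complex IV, 16 were lower in KO PBS than in HET PBS, where 53.5% of all loci were lower, and 0 were called. An unadjusted p under 0.05 was found for 2 of them, Coa6 joint with Gm17296 (log2 difference -0.29) and Coa3 joint with Wnk4 (-0.23), a count near the 6.94% of all loci. With the inhibitor in knockouts, 11 were higher and 9 lower, and 2 of those higher had an unadjusted p under 0.05 (8.21% of all loci in either direction). Between KO antimiR-21 and HET PBS, 2 of the 16 that were lower had an unadjusted p under 0.05, Lrpprc (-0.36) and Cox15 joint with Entpd7 (-0.32), beside 8.05% of all loci. With Y-linked reads 4 of the 20 rose, where 11.1% of all loci were called higher. Cox18 rose by 0.40, Cox15/Entpd7 by 0.36, Lrpprc, which stabilises mitochondrial messenger RNAs, by 0.35, and Taco1, which activates translation of a mitochondrially encoded subunit, by 0.32 (adjusted p = 0.0139, 0.000871, 0.0018 and 0.00403). Of 4 assembly factors of complex III and 4 assembly factors and inhibitors of complex V, 0 passed the test in any of these comparisons and 0 had an unadjusted p under 0.05.

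Of 11 regulators of respiratory genes, 8 were lower in KO PBS than in HET PBS (53.5% of all loci), and 0 were called in any comparison. Esrrb, an estrogen-related receptor, stood at 42.1, 38.3 and 28.2 CPM in HET PBS, at 37.3, 32.8, 24.5 and 31.5 in KO PBS and at 42.0, 51.1, 40.7 and 37.5 in KO antimiR-21. The treated knockouts all lay above the untreated ones, though the nearest stood at 37.5 and 37.3 CPM, and 4.28% of all loci had separate ranges. The log2 difference was 0.44 (SE 0.154, unadjusted p = 0.0147, adjusted p = 0.47 by edgeR). Of the 11 regulators, 1 was higher and 1 lower with the inhibitor at an unadjusted p under 0.05, beside 8.21% of all loci. Pprc1, a coactivator of the PGC-1 family, stood at 16.8, 20.7 and 22.0, at 27.3, 19.6, 28.0 and 24.4, and at 19.7, 19.5, 23.9 and 16.7 CPM, with a log2 difference of -0.32 with the inhibitor in knockouts (SE 0.143, unadjusted p = 0.048, adjusted p = 0.603 by edgeR). Its groups overlap.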

How the data were processed

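Messenger RNA of whole kidney was sequenced by the authors as 11 libraries made with the TruSeq RNA v2 kit from 150 ng of total RNA, per the labels' protocols. Libraries from this kit carry no strand information. The build was mm10 per the submitters' processing notes, which list HTSeq 0.5.4p5, STAR, SAMtools, limma and FastQC without saying what each did. The sources used here do not give the gene annotation or how reads were counted.

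The authors deposited estimated counts per gene for each library, in steps of 0.5, of which 47.4% of the values above 0 were not whole. They also deposited a matrix of log2 values, used as an alternative only. Pairs of names with identical counts in all libraries and a total of 50 or more (1513 pairs) were joined into one locus. Totals per library were 22.4 M to 49.7 M as deposited.

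Counts were rounded, filtered with filterByExpr (14380 loci) and scaled by TMM. The quasi-likelihood test of edgeR 4.0.16 (R 4.3.3) was fitted to all loci and all 11 libraries, two-sided, with Benjamini-Hochberg adjustment over all loci at 0.05; every adjusted p comes from it unless DESeq2 1.42.0 or limma 3.58.1 is named. Deviations by library use log2 CPM with a prior count of 0.5. The term for Y-linked reads (Ddx3y above 5 CPM) was added to the groups. Coordinates and transcript lengths come from GENCODE M21, of which 40 members were found. Of these, 16 overlap another gene and 13 named pseudogenes of members are in RefSeq, so reads could be shared with other genes.

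Members and lists were chosen with earlier results of these data known. Values are given for the 2 members per complex with the smallest p in each comparison at a mean of 5 CPM or more, for the isoform sets, and for the genes with the smallest p in each pathway list. Joining, the chromosome status and the fat split were defined from the data. Alternatives covered scaling, tool, filter, joining, replicate block, samples in the fit and each library left out.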

Additional observations from a re-analysis of the deposited data

Results flagged for a closer look

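Values of 84 groups of 4 libraries were screened for a library far from the other 3 (Dixon's test at 95%). Chance flags about 1 group in 20, and 14 were found, all of them high values, 9 of them in KO antimiR-21 4. Because members move together, these are not separate observations.

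In KO antimiR-21 4, Uqcrfs1 stood at 501 CPM against 359.9 to 366 in the other treated libraries, Uqcrq at 152 against 100.1 to 106 and Uqcr11 at 112 against 92.9 to 94.2. In complex IV, Cox6b1 stood at 405 against 280.5 to 295 and Cox8a at 388 against 296 to 297. In complex V, Atp5f1 joint with Wdr77 stood at 588 against 445 to 464, Atp5g1 at 257 against 202 to 206, Atp5g3 at 1028 against 801 to 831 and Atp5j2 at 205 against 152 to 157 CPM. This library is the treated one with Y-linked reads.

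In KO PBS 2, Atp5e stood at 198 CPM against 150.0 to 157 in the other untreated knockouts, Atp5g1 at 298 against 214 to 228 and Atp5o, the stalk subunit OSCP, at 403 against 316 to 325. The median deviation of complex IV was 0.26 there, where the remaining untreated knockouts lay between -0.11 and -0.05. In KO antimiR-21 1, Cox8b stood at 2.40 CPM against 0 to 0.276.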

How the results depend on the processing

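Each comparison was repeated under 25 other settings, 1 of them (without the 3 libraries with Ucp1 above 1 CPM) chosen after seeing the data. In the 3 group comparisons 0 members were called under any of them, over 945 values each. Of 3628 member values, 303 changed sign, each for a member called under neither setting, and 0 called members changed direction. Loci called between KO PBS and HET PBS, KO antimiR-21 and KO PBS, and KO antimiR-21 and HET PBS numbered 83, 128 and 73 by DESeq2, and 2, 26 and 4 with a replicate block. Between KO antimiR-21 and HET PBS, 0 loci were called by limma-voom, within libraries with Y-linked reads, within those without, and without the Ucp1 libraries. The authors' log2 matrix with limma gave 1 (KO PBS against HET PBS) and 2 (KO antimiR-21 against HET PBS), and Y-linked status as a covariate gave 3 and 2. For the term of Y-linked reads, the block left 553 loci and 0 members (Cox6b2 at -0.31, adjusted p = 0.628, and Cox4i2 at -0.86, adjusted p = 0.406, by edgeR), and leaving out joined loci or the Ucp1 libraries left 1 member each. Deviations of same-numbered libraries had correlations of both signs, from -0.44 to 0.63. All pairs numbered 1 were positive (0.63, 0.48 and 0.36), and libraries with different numbers were not compared. As the labels do not say that the numbers pair animals, they were not taken as pairs.

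Within libraries without Y-linked reads, medians of complexes III, IV and V were 0.11, 0.11 and 0.081 for KO PBS against HET PBS, and -0.22 in complex IV for KO antimiR-21 against KO PBS. Within libraries with Y-linked reads they were 0.22, 0.22 and 0.21 for KO antimiR-21 against KO PBS and 0.065, 0.056 and 0.052 for KO antimiR-21 against HET PBS. The cause was not tested, and these subsets leave 1 library in some groups, which is assumed to vary like the others. Leaving out each library in turn gave 0 to 2 loci called between KO PBS and HET PBS (2 without KO PBS 2), 0 to 16 between KO antimiR-21 and KO PBS (16 without KO antimiR-21 3), 0 to 4 between KO antimiR-21 and HET PBS (4 without KO PBS 1), and 1218 to 3736 loci (without HET PBS 1 and without KO PBS 2) and 0 to 18 members for Y-linked reads. Counting depth limits Cox4i2, Cox8b, Cox7b2 and Cox8c, and the 3 or 4 libraries a group limit the rest.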
